A study of Mus musculus with 8 samples.

Results

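The enzymes of the methionine cycle and of transsulfuration were followed in cultured mouse liver cells through 9 genes: Mat1a, Mat2a, Mat2b, Gnmt, Ahcy, Bhmt, Bhmt2, Cbs and Cth. They were chosen by name, with earlier results of these data known. A gene was measured where the array annotation gave a probe set that gene's symbol alone. Ahcy has 2 such probe sets, of which the brighter on average was used. By this rule 8 of the 9 genes had a probe set of their own, and these 8 were among the 13845 genes tested; Mat2a had none and is not analysed here. Primary hepatocytes of male C57Bl6J mice were treated for 6 h with 100 nM glucagon, with 100 nM glucagon and 2 µM GW4064 together, with 2 µM GW4064, or with DMSO, the solvent control. The medium of all groups held 100 nM dexamethasone, a glucocorticoid. GW4064 is a synthetic agonist of FXR, the nuclear receptor for bile acids. Each of the 4 groups has 2 arrays, from experiments 1 and 2, each made on hepatocytes pooled from 3 mice. The spread within a group of 2 is therefore that between experiments, which mixes the cell pool with anything particular to a single array. The labels give no age.

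Methionine adenosyltransferases turn methionine into S-adenosylmethionine, the methyl donor of the cell. Methyltransferases leave S-adenosylhomocysteine, which is split to homocysteine, and homocysteine is either methylated back to methionine or committed through transsulfuration to cysteine. Liver is a main site of methionine breakdown. Glucagon acts on hepatocytes through cyclic AMP and is known to induce enzymes of amino acid breakdown in them.

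Values are log2 signals as deposited, so a difference of 1 is a doubling of signal. Hepatocyte markers were bright: the median of 8 was 11.78 to 11.98 on the arrays with glucagon and 11.59 to 11.91 on those without, and all 8 lay above the level that marks the lower 40% of probe sets (3.13 to 3.27). The medians of 7 sinusoidal endothelial markers were 3.62 to 4.06 with glucagon and 3.61 to 4.20 without, with 2 of 7 at or below that level on every array. Those of 6 Kupffer cell, 6 stellate cell, 5 cholangiocyte and 5 leukocyte markers lay between 2.73 and 3.79. Single markers of these lists were brighter than the medians. Among them were Cd68 of macrophages (10.09 to 10.82), Cldn4 of cholangiocytes (7.19 to 8.09), Lyve1 of endothelium (6.19 to 7.57) and Reln of stellate cells (5.14 to 6.25). The GW4064 array of experiment 2 stood apart from the others: over the genes tested its correlations with them were 0.975 to 0.985, with 0.976 to 0.997 among the other 7, and its median signal was 3.57, where the others had 3.42 to 3.46. Values without it are given beside the results it changed most. In RNA from whole cultures, fewer cells of a type and less RNA per cell cannot be told apart.

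RefSeq (GRCm38.p6) promoter sequences were at hand for 7 of the 9 genes, Mat1a and Cth not among them. The 250 bases before the start are shown for Cbs and Bhmt2, which had higher signals with glucagon, and for Bhmt, the neighbour of Bhmt2 on the same chromosome, which stayed near the bottom of the signal range. Capitals mark the nuclear receptor core motif AGGTCA (or TGACCT, the same motif on the other strand).
Cbs, chr17:31637206-31637455, minus strand: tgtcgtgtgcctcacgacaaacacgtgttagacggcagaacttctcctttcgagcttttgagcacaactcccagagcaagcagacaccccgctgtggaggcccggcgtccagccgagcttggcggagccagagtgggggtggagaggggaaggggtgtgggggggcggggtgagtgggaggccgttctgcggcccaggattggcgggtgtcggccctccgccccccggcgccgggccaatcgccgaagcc
Bhmt2, chr13:93674303-93674552, minus strand: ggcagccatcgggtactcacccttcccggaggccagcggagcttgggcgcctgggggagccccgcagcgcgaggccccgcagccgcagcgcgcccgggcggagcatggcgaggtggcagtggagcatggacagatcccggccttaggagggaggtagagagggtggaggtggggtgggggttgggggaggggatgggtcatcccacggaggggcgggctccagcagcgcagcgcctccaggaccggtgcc
Bhmt, chr13:93637759-93638008, minus strand: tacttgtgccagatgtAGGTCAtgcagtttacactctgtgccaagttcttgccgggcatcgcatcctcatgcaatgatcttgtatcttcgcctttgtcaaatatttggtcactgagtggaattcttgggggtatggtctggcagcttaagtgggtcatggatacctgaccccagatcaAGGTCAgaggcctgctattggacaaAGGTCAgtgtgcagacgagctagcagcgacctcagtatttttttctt
The Bhmt window holds the motif 3 times, the Gnmt and Ahcy windows once each, and those of Cbs, Bhmt2, Mat2a and Mat2b do not hold it. Among 32851 promoter windows of this length, 14% hold it at least once, and the share that hold it 3 times was not counted. The cyclic AMP response element TGACGTCA (1.55% of windows), its core TGACG (17.8%, contained in the full element), the inverted repeat of the AGGTCA motif with 1 base between that FXR binds (0.00609%, contains the AGGTCA motif) and the glucocorticoid receptor core motif AGAACA (16.1%) were searched on both strands and lie in none of the 7 windows. The windows of Cbs and Bhmt2 were 68.0% and 74.0% G or C, and that of Bhmt 48.0%.

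Glucagon was followed by higher signals of the enzyme that opens the cycle (Mat1a), of a homocysteine methyltransferase (Bhmt2) and of the first transsulfuration enzyme (Cbs). Set over all 4 arrays with glucagon and all 4 without, 3 of the 8 measured genes rose and 0 fell in limma's test (adjusted p under 0.05 over all genes). Over all genes tested, 0.816% rose and 0.506% fell in that comparison. The median difference of the 8 genes was 0.38, and that of all genes was 0.00. The 0.38 lies between the differences of Gnmt (0.33) and Ahcy (0.43), neither of which passed. The other Ahcy probe set gave 0.13. The 3 genes that rose had every array with glucagon above every array without it, as did 6.07% of all genes. In a second fit the experiment was a block, so that arrays were compared within a cell pool. The same 3 genes rose there, and 0 fell, where 2.67% of all genes rose and 3.08% fell (5.76% in either direction, against 1.32% without the block). Without the block the 3 calls depended on single arrays: 0 genes passed when the DMSO array of experiment 1, either glucagon array or either array of the combined treatment was left out, and 3 passed without any 1 of the remaining arrays. With the block the count was 1 without the DMSO array or the combined array of experiment 1, 2 without the combined array of experiment 2, 4 without the GW4064 array of experiment 1, and 3 without any 1 of the other arrays. The share of all genes that passed also moved. With the block and without the GW4064 array of experiment 2 it was 10.5%, against 5.76% with all arrays. It was not counted for the other arrays left out, or without the block.

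**Figure D1:**
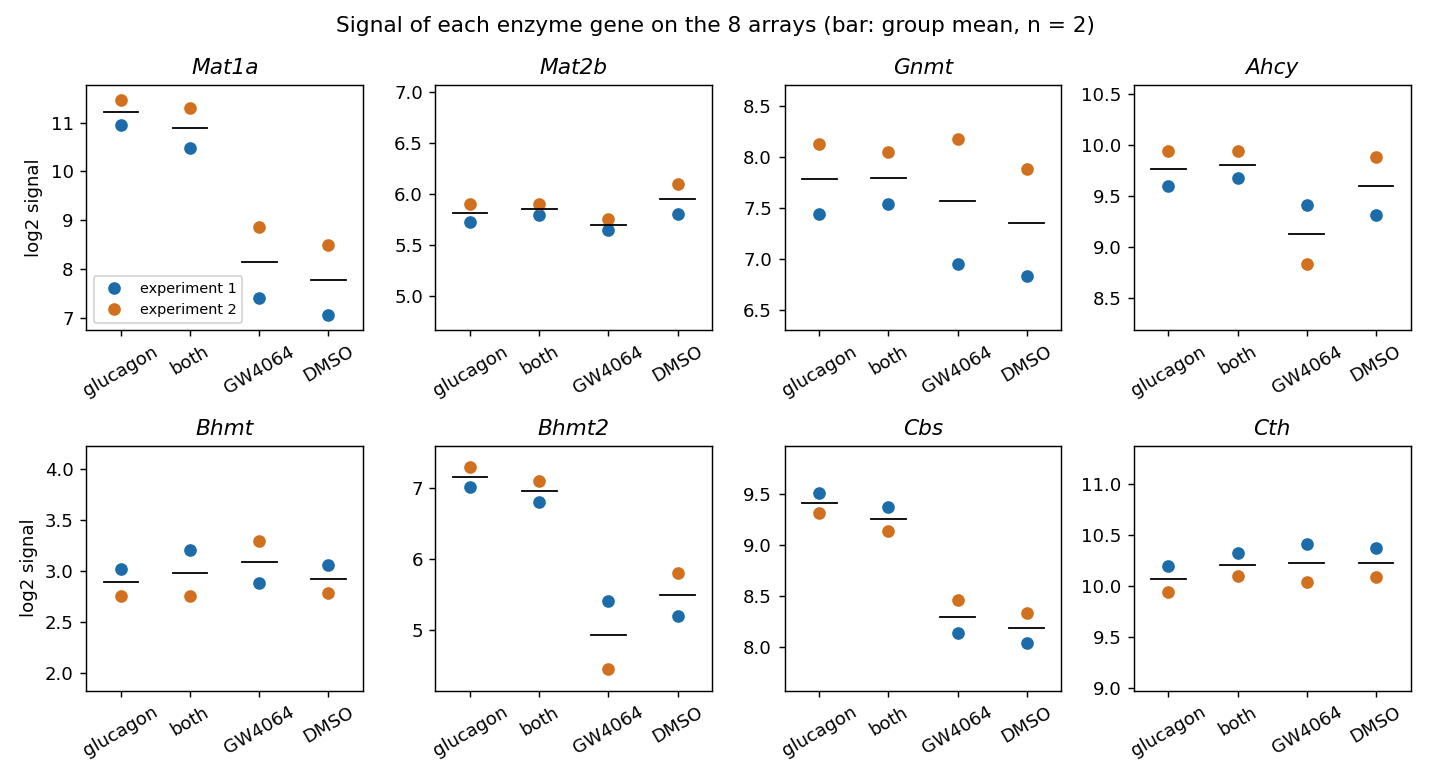
Log2 signal (y axis, each panel with its own range) of the 8 measured genes in the 4 groups (x axis; "both" is glucagon with GW4064), with a point per array coloured by experiment and a bar at the mean of the 2 arrays. Mat1a, Bhmt2 and Cbs have all 4 arrays with glucagon above all 4 without, as do 6.07% of all genes. Mat1a, Mat2b and Gnmt have experiment 2 above experiment 1 in all 4 groups, as do 13.8% of all genes. Of these, Mat2b did not pass between the experiments (limma adjusted p = 0.233).

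Mat1a encodes the methionine adenosyltransferase of adult liver. Its signals were 10.95 and 11.47 with glucagon, against 7.06 and 8.5 with DMSO in experiments 1 and 2. They were 10.49 and 11.29 with both agents, against 7.41 and 8.87 with GW4064. The arrays with and without glucagon did not overlap: the lowest with it was 10.49 and the highest without it 8.87. The means were 11.21 ± 0.37 with glucagon and 7.78 ± 1.02 with DMSO (SD, n = 2 each). Over the 4 pairs of groups within experiments, glucagon added 3.89 and 2.97 without GW4064, and 3.08 and 2.42 with it.

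For glucagon against DMSO this was a log2 difference of 3.43 (10.8-fold, limma's standard error SE 0.61, 95% interval 1.98 to 4.88, n = 2 each). That difference did not pass limma's test over all genes without the block (adjusted p = 0.184) and passed with it (SE 0.25, adjusted p = 0.00318), though not without the DMSO array of experiment 1 (limma adjusted p = 0.0715). The difference with GW4064 present was 2.75 (6.74-fold, SE 0.61, limma adjusted p = 0.225, and 0.00912 with the block), and with the block it did not pass without either combined array. The comparisons against DMSO share its 2 arrays. With the block 2 of the 8 genes, Mat1a and Cbs, rose for glucagon against DMSO (0.925% of all genes passed, 0.643% upward), 1, Mat1a, for both agents against GW4064 (1.06%, 0.701% upward) and 1, Mat1a, for both agents against DMSO (0.737%, 0.513% upward). Without the block 0 of 8 passed in each, where 0.116%, 0.166% and 0.123% of all genes did. Mat1a, Bhmt2 and Cbs had an unadjusted limma p under 0.05 in each. So did Ahcy for both agents against GW4064, where it rested on the GW4064 array of experiment 2. The share of all genes under that unadjusted level was not counted. Over all arrays Mat1a was 3.09 higher with glucagon (8.52-fold, SE 0.43, limma adjusted p = 0.0277, and 0.000598 with the block). With the block that call held without any 1 of the 8 arrays, at adjusted p-values of 0.000693 to 0.00941.

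Mat2b encodes the regulatory subunit that partners the other methionine adenosyltransferase, MAT2A. Its signals were 5.72 and 5.90 with glucagon, against 5.80 and 6.09 with DMSO, and 5.79 and 5.90 with both agents, against 5.64 and 5.75 with GW4064. All 8 values lay between 5.64 and 6.09, and the arrays with and without glucagon overlapped. Over all arrays the difference with glucagon was 0.01 (SE 0.10, 95% interval -0.24 to 0.25, limma adjusted p = 0.986).

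Gnmt, the abundant glycine methyltransferase of liver that consumes surplus S-adenosylmethionine, had signals of 7.44 and 8.13 with glucagon, against 6.83 and 7.88 with DMSO. With both agents it had 7.54 and 8.05, against 6.95 and 8.18 with GW4064. The experiments set these values apart more than the treatments did: the 4 arrays of experiment 2 lay between 7.88 and 8.18 and the 4 of experiment 1 between 6.83 and 7.54. With glucagon the differences were 0.61 and 0.58 in experiment 1, and 0.25 and -0.14 in experiment 2. Over all arrays the difference was 0.33 (SE 0.35, 95% interval -0.51 to 1.16, limma adjusted p = 0.725, and 0.209 with the block). Without single arrays it ranged from 0.02 to 0.63.

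Ahcy encodes the hydrolase that splits S-adenosylhomocysteine, whose build-up inhibits methyltransferases. The brighter probe set had signals of 9.59 and 9.94 with glucagon, against 9.31 and 9.88 with DMSO, and 9.67 and 9.94 with both agents, against 9.41 and 8.83 with GW4064. The value of 8.83 is that of the array that stood apart. The other Ahcy probe set had 5.44 and 5.52 with glucagon against 4.92 and 5.44 with DMSO, and 5.14 and 5.19 with both agents against 5.01 and 5.42 with GW4064. Over all arrays the difference with glucagon was 0.43 for the first (SE 0.19, limma adjusted p = 0.366) and 0.13 for the second (limma adjusted p = 0.749), and the first was 0.28 without the GW4064 array of experiment 2. For both agents against GW4064 the probe sets differed in sign, with 0.68 and -0.05. The 0.68 was 1.11 in experiment 2 and 0.26 in experiment 1, and without the GW4064 array of experiment 2 it was 0.39 (limma adjusted p = 0.6), or 0.19 with the block as well (limma adjusted p = 0.553). The 10 named probe sets on each side of the brighter one by identifier include 0 from the chromosome of Ahcy in RefSeq, and all 20 around the other one are from it. Which gene the brighter one reads was not tested.

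Bhmt2 encodes a homocysteine methyltransferase that takes its methyl group from S-methylmethionine. Its signals were 7.01 and 7.29 with glucagon, against 5.19 and 5.79 with DMSO. They were 6.80 and 7.09 with both agents, against 5.40 and 4.44 with GW4064. The means were 7.15 ± 0.20 with glucagon and 5.49 ± 0.42 with DMSO (SD, n = 2 each). The groups with glucagon lay above those without on every array, and the lowest value was on the array that stood apart. Glucagon against DMSO gave 1.66 (3.16-fold, SE 0.34, 95% interval 0.86 to 2.46, n = 2 each, limma adjusted p = 0.222, and 0.104 with the block). Over all arrays Bhmt2 rose by 1.84 (3.59-fold, SE 0.24, limma adjusted p = 0.0234, and 0.0116 with the block). With the block it did not pass without the DMSO array of experiment 1 or either combined array. Without the GW4064 array of experiment 2 the rise was 1.60 (limma adjusted p = 0.0184), and with the block as well it was 1.5 (0.00114).

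Bhmt, which methylates homocysteine with betaine and is among the abundant enzymes of intact liver, was near the bottom of the range. Its signals were 3.02 and 2.76 with glucagon, against 3.06 and 2.79 with DMSO, and 3.21 and 2.76 with both agents, against 2.88 and 3.30 with GW4064. They exceeded the level of the lower 40% of probe sets on 2 of 8 arrays, and the difference with glucagon over all arrays was -0.07 (SE 0.16, limma adjusted p = 0.879).

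Cbs, cystathionine beta-synthase, joins homocysteine to serine and commits it to transsulfuration. Its signals were 9.51 and 9.32 with glucagon, against 8.04 and 8.34 with DMSO, and 9.37 and 9.14 with both agents, against 8.14 and 8.46 with GW4064. The means were 9.41 ± 0.14 with glucagon and 8.19 ± 0.22 with DMSO (SD, n = 2 each). The ranges with and without glucagon, 9.14 to 9.51 and 8.04 to 8.46, did not overlap. For glucagon against DMSO the difference was 1.22 (2.34-fold, SE 0.18, limma adjusted p = 0.0857, and 0.037 with the block, where it passed without either GW4064 array but not without any 1 of the others). Over all arrays Cbs rose by 1.09 (2.13-fold, SE 0.13, 95% interval 0.79 to 1.38, limma adjusted p = 0.0153, and 0.0072 with the block). With the block it did not pass without the DMSO or the combined array of experiment 1. With GW4064 present the difference was 0.95 (1.93-fold, SE 0.18, limma adjusted p = 0.162, and 0.0711 with the block).

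Cth, the lyase that releases cysteine from cystathionine in the next step, did not pass. Its signals were 10.20 and 9.94 with glucagon, against 10.37 and 10.09 with DMSO, and 10.32 and 10.10 with both agents, against 10.41 and 10.04 with GW4064. The groups overlapped, and the difference over all arrays was -0.09 (SE 0.13, 95% interval -0.40 to 0.22, limma adjusted p = 0.81).

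**Figure D2:**
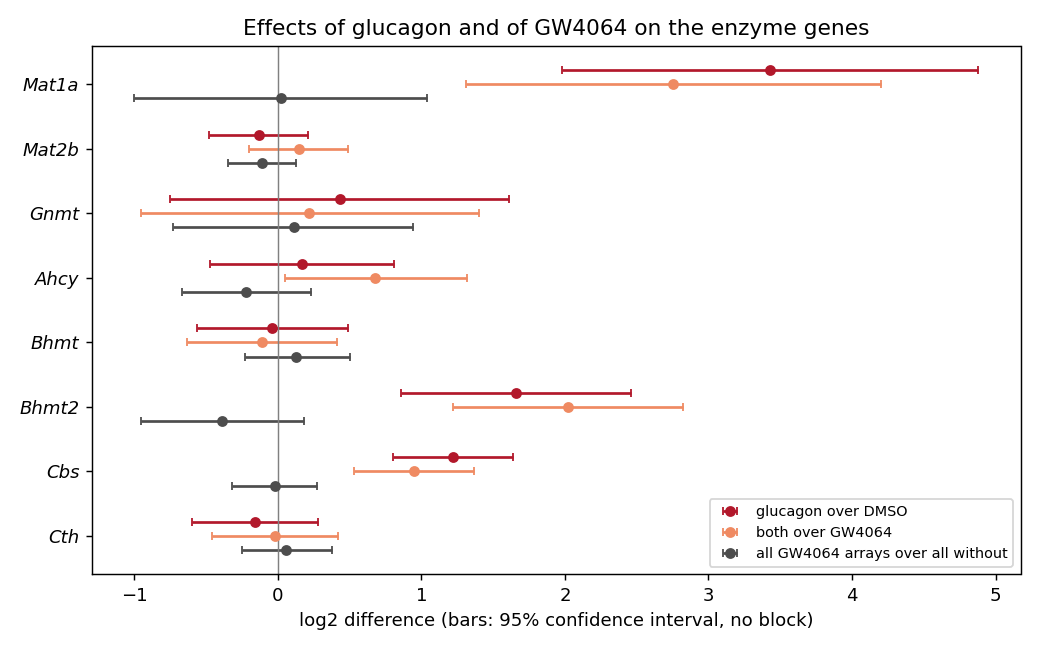
Log2 differences (x axis) of the 8 measured genes (y axis) for glucagon over DMSO, for both agents over GW4064, and for all arrays with GW4064 over all without, with 95% confidence intervals from the fit without the block. The glucagon intervals of Mat1a, Bhmt2 and Cbs lie above 0 with and without GW4064, that of Ahcy in the presence of GW4064 only (0.05 to 1.32, which rests on the GW4064 array of experiment 2), and every GW4064 interval includes 0.

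GW4064 moved none of the 8 genes past the test. Over the 4 arrays with GW4064 and the 4 without it, 0 of 8 passed, as did 0% of all genes by limma. The median difference of the 8 was 0.00. An unadjusted limma p under 0.05 was found for 0 of 8, and the share of all genes under that level was not counted. Mat1a differed by 0.02 (SE 0.43, 95% interval -1.0 to 1.04), Cbs by -0.02 (SE 0.13, -0.32 to 0.27) and Cth by 0.06 (SE 0.13, -0.25 to 0.38). The farthest below 0 was Bhmt2 with -0.39 (SE 0.24, -0.95 to 0.18), which became -0.15 without the GW4064 array of experiment 2. Without that array the sign of the Mat1a difference turned (-0.35). With the block and without it 0 of the 8 passed, and 0.0217% of all genes did. The intervals above are from the fit without the block. With the block and all 8 arrays the SE was 0.17 for Mat1a, 0.12 for Cbs, 0.07 for Cth and 0.24 for Bhmt2. In that fit too, 0 of the 8 passed. Effects of GW4064 within the intervals could not be told from 0 in the fit without the block.

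The glucagon effect was also set against itself with and without GW4064. On the log2 scale the interaction was -0.68 for Mat1a (SE 0.87, 95% interval -2.72 to 1.37), 0.36 for Bhmt2 (SE 0.48, -0.77 to 1.49) and -0.27 for Cbs (SE 0.25, -0.87 to 0.32). None of the 8 genes passed for the interaction with limma (adjusted p = 1 for all 8), and 0% of all genes did. Here too 0 of 8 had an unadjusted limma p under 0.05, and the share of all genes under that level was not counted. Without the GW4064 array of experiment 2 the interactions of Mat1a and Bhmt2 changed sign, to 0.05 and -0.12; with the block as well they were -0.41 and -0.32.

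The experiments differed in part of the cycle. The cell pool changed with the experiment, so it cannot be told apart from anything else that did. With the treatment in the model, 2 of the 8 genes were higher in experiment 2 than in experiment 1 and 0 were lower, where 2.64% of all genes were higher and 2.52% lower. Mat1a was higher by 1.06 (SE 0.17, limma adjusted p = 0.0261) and Gnmt by 0.87 (SE 0.13, limma adjusted p = 0.0207). Mat1a was 0.52 higher in experiment 2 on the glucagon arrays, 0.81 on those with both agents, 1.46 with GW4064 and 1.44 with DMSO. For Gnmt these differences were 0.69, 0.51, 1.23 and 1.05. Cth was lower in experiment 2 in all 4 groups (-0.22 to -0.37), as were 20.8% of all genes, and did not pass (-0.28, SE 0.07, limma adjusted p = 0.0819). Leaving out single arrays, between 0 and 2 of the 8 genes passed. The count was 0 without either array of the combined treatment or either DMSO array, and 1 without either glucagon array. The share of all genes was not counted in these settings.

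Marker genes of other cell types moved with the experiment too. The endothelial marker Lyve1 was 1.02 lower in experiment 2 (SE 0.12, limma adjusted p = 0.012), and the endothelial list had a median signal of 3.61 to 3.77 in experiment 2 and 4.00 to 4.20 in experiment 1. That was 1 of 5 endothelial markers tested. Of 3 stellate and fibroblast markers tested 2 passed, Reln and Dcn (0.84 and 0.67 higher in experiment 2), and the other, Pdgfrb, differed by -0.06. Of 6 macrophage markers 2 passed, Cd68 and Marco (0.43 and 0.38 higher), while Clec4f and Csf1r differed by -0.07 and -0.02. Of 8 hepatocyte markers 0 passed, with list medians of 11.68 to 11.98 in experiment 2 and 11.59 to 11.91 in experiment 1. The part of these differences in those of Mat1a and Gnmt was not tested.

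The size of the glucagon effect was compared between the experiments in a model chosen after the data were seen, which adds a separate glucagon term for experiment 2. Mat1a differed with glucagon by 2.70 in experiment 2 and 3.49 in experiment 1, and the difference of -0.79 (SE 0.16) did not pass over all genes (limma adjusted p = 0.306). Cbs differed by 0.83 and 1.35 (difference -0.52, SE 0.14, limma adjusted p = 0.393), Gnmt by 0.06 and 0.60 (difference -0.54, SE 0.16, limma adjusted p = 0.398), and Bhmt2 by 2.08 and 1.60. By limma 0 genes in all passed this comparison. The unadjusted limma p was 0.00366 for Mat1a, 0.0167 for Gnmt and 0.0114 for Cbs. The share of all genes with unadjusted values this small was not counted.

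**Figure D3:**
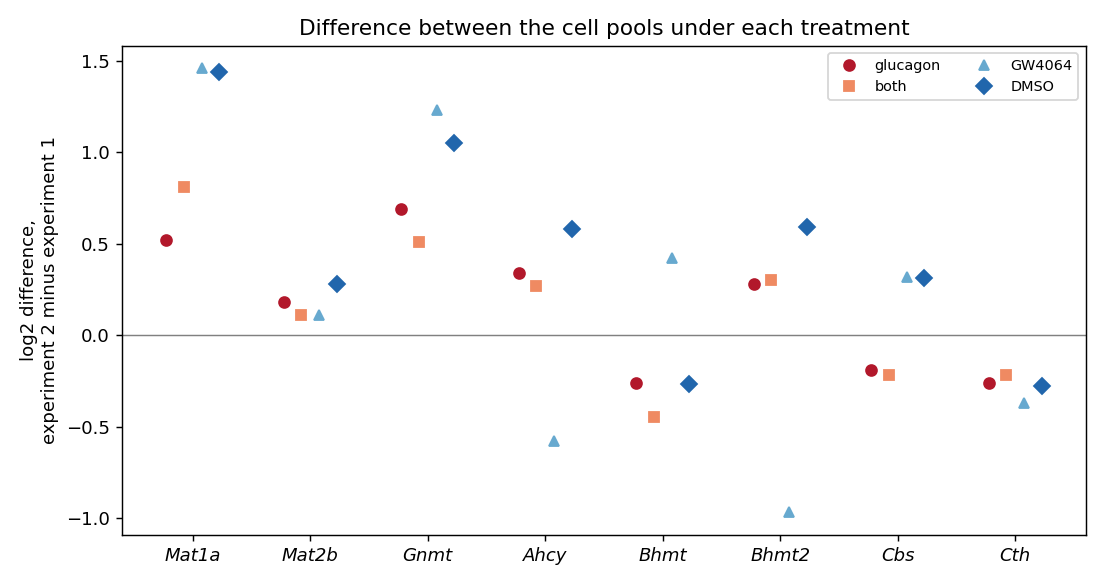
Log2 difference, experiment 2 minus experiment 1 (y axis), of the 8 measured genes (x axis) within each of the 4 groups, a point per group. Mat1a lies at 1.44 and 1.46 without glucagon and at 0.52 and 0.81 with it, Gnmt lies above 0 in all groups, and the GW4064 points of Ahcy, Bhmt and Bhmt2 lie on the other side of 0 from the other groups.

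The pathways that feed or drain the cycle were described over all arrays with and without glucagon. In choline and betaine breakdown 1 of 6 measured genes rose, with a median of 0.11. This was Dmgdh, dimethylglycine dehydrogenase, which breaks down the product that BHMT leaves from betaine. Its signals were 8.48 and 8.19 with glucagon, against 7.09 and 7.07 with DMSO, and 8.39 and 7.96 with both agents, against 7.19 and 7.15 with GW4064. It rose by 1.13 (SE 0.12, limma adjusted p = 0.0124, and 0.00275 with the block), and arrays with and without glucagon did not overlap. Without the DMSO, glucagon or combined array of experiment 1 it did not pass. Chdh, the choline dehydrogenase on the way to betaine, had a difference of 1.22 (SE 0.62) that passed with the block alone (limma adjusted p = 0.0119, and 0.431 without it).

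In remethylation and folate supply 0 of 9 measured genes passed (median 0.03). Mthfd1, a trifunctional folate enzyme, differed by 0.40 (limma adjusted p = 0.0937, and 0.0365 with the block), and Mtrr, which reactivates methionine synthase, by -0.30 (limma adjusted p = 0.534). With the block and without the GW4064 array of experiment 2, a setting in which 10.5% of all genes passed, Mtrr was -0.39 (limma adjusted p = 0.0465). Among 10 methyltransferases and the S-adenosylmethionine carrier 0 passed (median -0.02). Nnmt, the nicotinamide methyltransferase, differed by 1.21 (SE 0.23, limma adjusted p = 0.0624, and 0.0235 with the block). Its signals were 5.79 and 6.02 with glucagon, against 4.94 and 4.60 with DMSO, and 5.75 and 5.69 with both agents, against 4.97 and 3.90 with GW4064. Mettl16, an RNA methyltransferase that controls MAT2A transcripts, differed by -0.28, and by -0.38 with the block and without that array (limma adjusted p = 0.0356).

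Downstream of S-adenosylhomocysteine, Adk, the kinase that clears adenosine, differed by 0.42 (limma adjusted p = 0.148, and 0.0404 with the block), and Ahcyl1, a relative of Ahcy, by -0.11; 0 of 3 measured genes passed without the block. In cysteine, taurine and sulfide breakdown 0 of 10 passed with or without the block (median -0.08), with 0.55 for the sulfite oxidase gene Suox, which passed with the block once the GW4064 array of experiment 2 was left out (0.43, limma adjusted p = 0.0457) and without the block when that of experiment 1 was (0.63, limma adjusted p = 0.0383), and 0.22 for the sulfide oxidoreductase gene Sqor. In glutathione synthesis and cystine uptake 0 of 6 passed (median 0.10). Gss, glutathione synthetase, differed by -0.48 (limma adjusted p = 0.106, and 0.0415 with the block), and Chac1, which degrades glutathione, by 0.39 (0.17 to 0.62 without single arrays). In polyamine synthesis and methionine salvage 0 of 8 passed (median -0.01), and with the block 1 rose, Odc1 (0.46), and 1 fell, Srm (-0.35), both enzymes of polyamine synthesis. Of the hepatocyte markers, Tat, a glucagon-responsive aminotransferase, rose by 0.83 (SE 0.14, limma adjusted p = 0.0465), and Cps1, of the urea cycle, differed by 0.46 and passed with the block (limma adjusted p = 0.024, and 0.0624 without it). Of the 20 markers of other cell types tested 0 passed. The cholangiocyte marker Sox9 differed by -1.32 (SE 0.32, 95% interval -2.08 to -0.56, limma adjusted p = 0.133, and 0.0662 with the block). It had 5.43 to 5.94 on the arrays with glucagon and 6.32 to 7.88 on those without. Of all genes, 6.88% likewise had every array with glucagon below every array without it. The part of Sox9 in the glucagon differences was not tested.

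**Figure D4:**
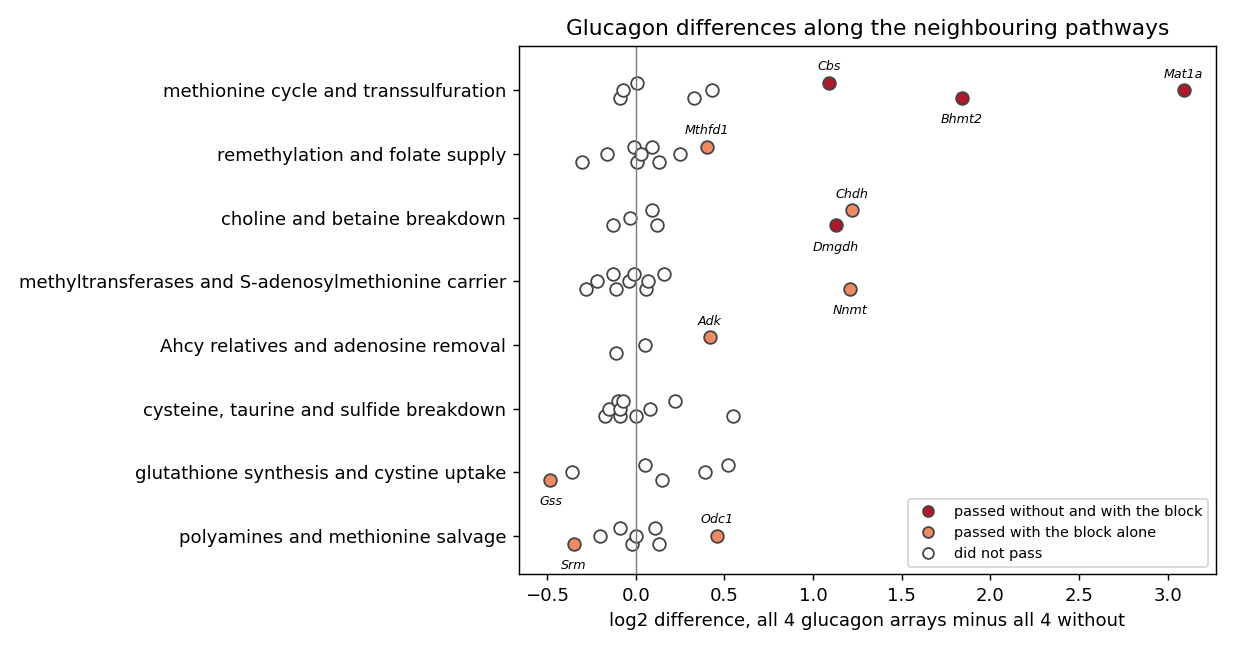
Log2 difference between all 4 arrays with glucagon and all 4 without (x axis) for each measured gene of the methionine cycle and transsulfuration and of 7 neighbouring pathways (rows), a point per gene. Dark red points, Mat1a, Bhmt2, Cbs and Dmgdh, passed limma's test without and with the block, orange points with the block alone, and open points in neither.

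Between the experiments, genes of the same neighbouring pathways passed in both directions. Of all genes, 2.64% were higher in experiment 2 and 2.52% lower. In remethylation and folate supply 2 of 9 genes were higher and 1 was lower. In choline and betaine breakdown 2 of 6 were higher. Of methyltransferases and the carrier 2 of 10 were higher, as were 2 of 10 in cysteine, taurine and sulfide breakdown. In polyamine synthesis and methionine salvage 2 of 8 were lower, and in the other lists 0 passed. Higher in experiment 2 were Inmt, an indolamine methyltransferase (1.83, limma adjusted p = 0.00111), Chdh (1.60), Aldh1l1, a folate dehydrogenase (0.98), Pipox, which oxidises pipecolate and sarcosine (0.96), Csad (0.60) and Cdo1 (0.43) of taurine synthesis, Pemt, which methylates phosphatidylethanolamine (0.49), and Shmt2, the mitochondrial serine hydroxymethyltransferase (0.46). Lower were Mmachc, which processes vitamin B12 (-0.57), Odc1 (-0.50) and Mtap of methionine salvage (-0.36). The calls of Inmt and Chdh held whichever single array was left out. Those of the other genes depended on single arrays, and Csad did not pass whichever array was left out. Chdh had signals of 7.45, 7.22, 6.25 and 6.65 in experiment 2 and 6.08, 6.05, 4.58 and 4.47 in experiment 1, in the order glucagon, both agents, GW4064 and DMSO.

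Cbs and Bhmt2 had the smallest p over all glucagon arrays without the block (with the block Mat1a had), and the genes most like them were found by the root mean square difference of the mean-centred log2 signals over the 8 arrays. Closest to Cbs were Hmgcs1, the cytosolic HMG-CoA synthase (0.118), the fumarase gene Fh1 (0.121), the transcription factor gene Prox1 (0.122), Dmgdh (0.136) and Mtus1 (0.149). Closest to Bhmt2 were the chemokine receptor gene Ackr3 (0.298), Cerk (0.311), the insulin receptor adaptor gene Irs2 (0.323), Gpcpd1 (0.324) and Chaf1b (0.336). Among the members themselves, Cbs lay nearest to Ahcy (0.50), followed by Gnmt (0.56), and Bhmt2 lay nearest to Cbs (0.58). The Ahcy value is that of the brighter probe set, for which the gene it reads was not tested. Mat1a lay 0.97 from Bhmt2, the nearest, and 1.75 from Cth, the farthest.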

How the data were processed

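RNA of 8 samples was measured on single-colour Affymetrix MoGene 2.0 ST arrays. Per the labels, the authors pooled 2 technical replicates per sample and used GeneSpring. Their deposited values were taken as log2 signals from their range; how they were normalized is not given in the sources used here. Array medians were 3.42 to 3.57.

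Of 41345 probe sets, 23521 had 1 gene symbol in the platform annotation, 1814 several and 16010 none. Probe sets above the 40th percentile of their array on at least 2 arrays were kept, and the brightest represented each gene (13845 genes). Limma 3.58.1 in R 4.3.3 fitted a mean per group over all 8 arrays (4 residual and 3.06 prior degrees of freedom). Its p-values are two-sided, with Benjamini-Hochberg adjustment across the genes tested, in each of 9 comparisons. The scripts were tested on simulated data.

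Each experiment used its own pool of cells, per the labels, so arrays of an experiment are paired; their deviations from the group means correlated at 0.35 to 0.62 over the pairs of groups. A second model with that block (3 residual degrees of freedom) stands beside the first where it changes a call. The members and the 7 pathway lists were chosen with earlier results of these data known. Genes named were the members, the genes of each list past the test, otherwise the 2 with the smallest p, and the 5 nearest patterns of Cbs and Bhmt2. Markers, Chdh and Cps1 under glucagon, and the smallest p-values of lists with a gene past the test between experiments alone, were named after their values were seen. Promoters were read from RefSeq (GRCm38.p6).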

Additional observations from a re-analysis of the deposited data

How the results depend on the processing

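In 8 arrays, leaving out a single array decided most calls. Over all glucagon arrays, 0 to 3 of the 8 genes passed limma's test without single arrays and 1 to 4 with the block as well. For both agents against GW4064 the ranges were 0 to 1 and 0 to 4. For glucagon against DMSO the range was 0 to 3 with the block, and between experiments it was 0 to 2. The share of all genes was not counted in most of these settings. With the block, 2 genes passed for glucagon against DMSO, 1 for both agents against GW4064 and 1 for both agents against DMSO; with a random block (correlation 0.233) these were 2, 0 and 1, and with the block but without the GW4064 array of experiment 2, they were 3, 2 and 3, where 3.16%, 1.37% and 2.47% of all genes passed (0.925%, 1.06% and 0.737% with all arrays). The direction of several differences turned, and the cause was not tested. The other Ahcy probe set gave -0.05 for both agents against GW4064. Without single arrays, glucagon against DMSO ranged from -0.12 to 0.46 for Ahcy, -0.17 to 0.10 for Bhmt, -0.09 to 0.95 for Gnmt and -0.28 to 0.01 for Mat2b. Both agents against GW4064 ranged from -0.33 to 0.12 for Bhmt, -0.20 to 0.17 for Cth and -0.39 to 0.84 for Gnmt. All glucagon arrays against the rest ranged from -0.19 to 0.04 for Bhmt, -0.18 to 0.01 for Cth, -0.06 to 0.08 for Mat2b and 0.02 to 0.63 for Gnmt. All GW4064 arrays against the rest ranged from -0.10 to 0.06 for Cbs, -0.03 to 0.16 for Cth, -0.20 to 0.42 for Gnmt and -0.35 to 0.39 for Mat1a. The interaction ranged from -1.41 to 0.05 for Mat1a and -0.12 to 0.85 for Bhmt2, and the experiment difference from -0.13 to 0.39 for Bhmt2 and -0.04 to 0.14 for Cbs. With the block and without the GW4064 array of experiment 2, Bhmt was 0.27 for both agents against GW4064, 0.12 for all glucagon arrays and -0.05 for all GW4064 arrays, Mat2b -0.01 for all glucagon arrays, Mat1a -0.12, Gnmt -0.01 and Ahcy 0.03 for all GW4064 arrays, and Bhmt2 -0.32 for the interaction. A filter at the 60th percentile left Bhmt untested. Groups of 2 arrays give wide intervals.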

Other observations

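The Ahcy probe sets differ in where their neighbours by identifier come from. For the probe set 17393207, all 20 named probe sets nearest by identifier belong to genes that lie within 100 genes of Ahcy in RefSeq, as do all 20 for Mat1a, Mat2b, Gnmt, Bhmt, Bhmt2 and Cbs. For the probe set 17330769, which the rule on the highest mean selected, 0 of 20 do. For Cth, 12 of 20 do.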
